A study of Caenorhabditis briggsae with 16 samples.

Results

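The change of the mature miRNA population of *Caenorhabditis briggsae* between 2 adjacent windows late in a larval time course, hours 30-33 and hours 26-29 after plating, is described here. Animals of the wild-type strain AF16 were grown without treatment at 25°C, and small RNA of whole animals was sequenced hourly, beginning 18 h and ending 33 h after synchronized L1 larvae had been given food. Hours 30, 31, 32 and 33 and hours 26, 27, 28 and 29 make up 8 of the 16 libraries, and the other 8 serve only as context. All libraries share strain, genotype and temperature, so by the labels the windows differ only in the age of the animals. With 1 library per hour, the 4 hours of a window stand in for replicates: a p-value below sets the difference between windows against the hour-to-hour spread, part of which is itself development, and not against separate cultures. The deposited table has 372 rows, each 1 arm (the 5p or 3p strand) of a miRNA hairpin, and 309 of them had 10 or more counts in at least 4 of the 8 libraries and were tested. Of the other 63 arms, 7 had no count in the 8 libraries and none had a mean above 11.9 normalised counts.

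A miRNA is cut from a hairpin as a duplex of 2 strands. The guide strand is kept in an Argonaute protein and pairs through its seed with target mRNAs, while the passenger strand is usually degraded soon after processing. Nematode larvae pass through several molts before adulthood, and miRNAs of the heterochronic pathway, let-7 among them, time the late larval steps in *C. elegans*. The miR-35 family, which carries the name Mir-36 in these data, is known from the germline and embryo of *C. elegans*. In RNA of whole animals, a change in the number of cells that make a miRNA and a change in its level per cell cannot be told apart. The prefix Cbr- of the arm names is left out below, an asterisk is part of a name as deposited, and the guide of a hairpin is taken as the arm with the higher mean over all 16 libraries.

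Values are normalised counts, that is, each count as a share of its own library, expressed for a library of average size among the 16. Totals were 9588599 to 10796885 counts in hours 30-33 and 10743163 to 13163646 counts in hours 26-29. Log2 changes are hours 30-33 over hours 26-29 and, unless another test is named, come from edgeR's quasi-likelihood test with Benjamini-Hochberg adjustment over the 309 arms. An arm is called higher or lower where its adjusted p was below 0.05.

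Between the windows a few arms became far more abundant while a larger number became scarcer. In hours 30-33, 40 of the 309 arms were higher (12.9%) and 104 were lower (33.7%) than in hours 26-29. The rises were led by members of the Mir-36 family, by Mir-71, a miRNA of *C. elegans* lifespan and starvation survival, and by Mir-255. The largest falls were those of Let-7-P5_3p*, Mir-10-P3m_3p*, Mir-92-o67_5p*, Mir-230_3p, Mir-788-v1_5p* and Mir-36-o25_3p, of which Mir-230_3p and Mir-36-o25_3p are guides. Changes of more than 2-fold were found for 13 of the higher and 32 of the lower arms. Rows that repeat each other were not merged in these counts, so each such row adds to them. The 4 values of one window did not overlap those of the other for 44 arms that were higher (14.2% of those tested) and 94 that were lower (30.4%), among them 36 of the 40 and 87 of the 104 called. By strand, 28 of 184 guides were higher and 66 lower, and 12 of 125 passengers were higher and 38 lower.

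**Figure D1:**
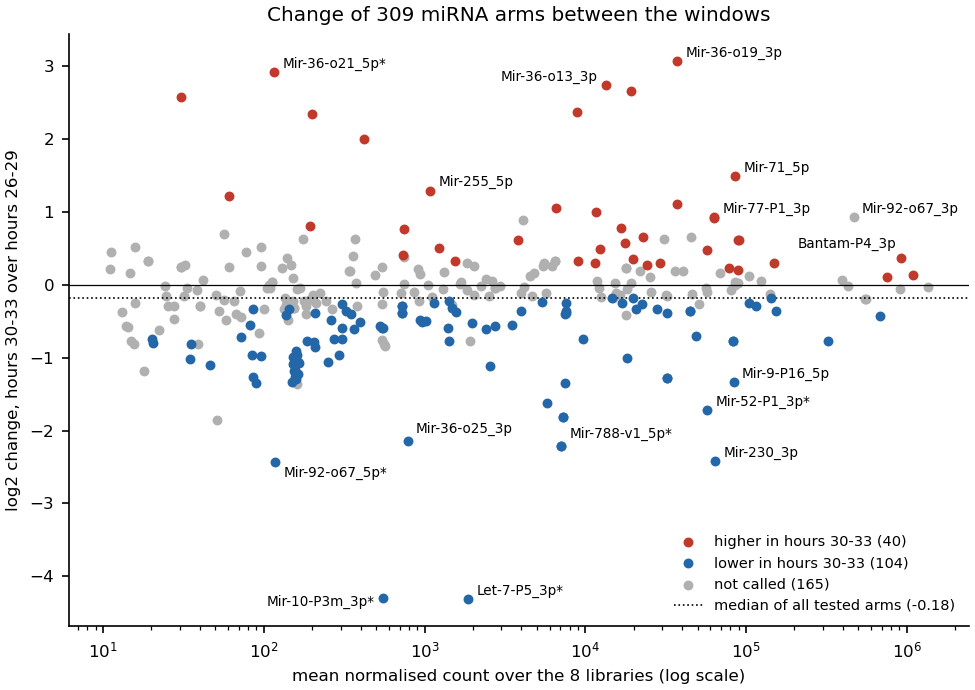
Log2 change of each of the 309 tested arms (hours 30-33 over hours 26-29, y axis) against its mean normalised count over the 8 libraries (x axis, log scale). Red points are the 40 arms called higher and blue points the 104 called lower in hours 30-33, and the dotted line is the median of all tested arms at -0.18; the Mir-36 arms stand at the top and Let-7-P5_3p* and Mir-10-P3m_3p* at the bottom.

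The balance of the calls depends on the scaling. With library totals the median log2 change of all tested arms was -0.18, and rises made up 27.8% of the calls. With TMM factors the median was -0.04 and 56 arms were higher and 71 lower (44.1% rises), and with median-of-ratios factors 60 were higher and 71 lower (45.8% rises). All 40 higher arms and 71 of the 104 lower arms were called the same way with TMM factors, and no arm was called in the opposite direction. Without the 32 h library 25 arms were higher and 60 lower, and without the 27 h library 28 were higher and 61 lower. When a linear term for the hour was added to the window term, edgeR called 0 arms (20 at an unadjusted p under 0.05, smallest adjusted p 0.56), so a step between the windows could not be told apart from a steady change with age. With a linear hour in place of the window, 53 arms were higher and 128 lower. Some arms rose and fell before 26 h, Let-7-P5_3p* between 793 and 8723 and Mir-71_5p between 47492 and 117020. For such arms 2 windows of 4 hours cannot tell a lasting change from the phase of a cycle.

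The called arms did not share 1 hour of change. For each of them the largest of the 7 hourly steps in the called direction was found on the scale of log2(normalised count + 8), where a choice of arms by the difference between windows favours the border. It lay between 29 and 30 h for 16 of the 40 higher and 39 of the 104 lower arms, and for 73 of all 309 arms. Over all tested arms the median absolute step between 29 and 30 h was 0.17, the same as at each of the 3 steps before it. The value moved in the called direction at every one of the 7 steps for 9 of the higher and 10 of the lower arms. Leaving out the 29 and 30 h libraries together left 43 arms higher and 107 lower, of which 39 and 97 were called the same way with all 8 libraries.

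The Mir-36 family divided. Of its 40 tested arms 11 were higher and 19 lower, against 12.9% and 33.7% of all tested arms. The median log2 change was -0.82 beside -0.18 for all tested arms. All 19 lower arms were guides, and 13 of them are the near-equal rows of Mir-36-o2 to Mir-36-o10 described below. The count of lower arms and the median therefore rest largely on rows that may repeat each other. The family held the highest single rise as well as falls. Its whole share of the libraries grew: the family took 0.982%, 1.47%, 2.01% and 2.8% of the counts at 30, 31, 32 and 33 h, against 0.639%, 0.657%, 0.573% and 0.578% at 26, 27, 28 and 29 h. From 18 to 25 h it had taken 0.366% to 0.615%. The guides of Mir-36-o1, o13, o19, o22 and o24 together made up 1.52% ± 0.70 of the counts in hours 30-33 and 0.385% ± 0.027 in hours 26-29 (mean ± SD of 4 hours).

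The largest rise of any arm was that of Mir-36-o19_3p. It had 32204, 52922, 73642 and 108774 normalised counts at 30, 31, 32 and 33 h, against 5964, 6725, 7206 and 12069 at 26, 27, 28 and 29 h. Each hour stood above the one before, the windows did not overlap, and the 33 h library held 18.2 times the 26 h value. The log2 change was 3.07 (SE 0.41, adjusted p = 0.0025 from edgeR), or 8.37-fold. Mir-36-o13_3p had 12189, 18499, 26670 and 35708 normalised counts in hours 30-33, against 2666, 2989, 3592 and 4820 in hours 26-29, a log2 change of 2.73 (SE 0.35, adjusted p = 0.0025 from edgeR). Mir-36-o1_3p had 16721, 26510, 36502 and 52204 normalised counts in hours 30-33, against 4327, 4626, 5098 and 6866 in hours 26-29, a log2 change of 2.66 (SE 0.35, adjusted p = 0.0025 from edgeR). These 3 guides shared a course: they increased at all 7 steps, by 2.44-fold to 2.67-fold between 29 and 30 h and by a further 2.93-fold to 3.38-fold from 30 to 33 h, and their highest values from 18 to 25 h were 5193, 3278 and 4770 for o19, o13 and o1.

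Mir-36-o21_5p*, the more abundant arm of a minor hairpin, rose over the same hours at a far lower level. It had 115, 168, 223 and 317 normalised counts in hours 30-33, against 22.8, 18.4, 25.3 and 43.0 in hours 26-29, a log2 change of 2.91 (SE 0.38, adjusted p = 0.0025 from edgeR). The remaining pair of risers began later. Mir-36-o24_3p, the most abundant member before 30 h, had 25547, 39793, 56521 and 81537 normalised counts in hours 30-33, against 23299, 29052, 23097 and 18950 in hours 26-29. Its windows overlapped, since the 30 h value lay below that of 27 h, and its log2 change was 1.11 (SE 0.33, adjusted p = 0.027 from edgeR; up to 0.069 without the 26, 28, 29, 32 or 33 h library). Mir-36-o22_3p had 9200, 12275, 17881 and 22300 normalised counts in hours 30-33, against 8164, 9065, 7755 and 5998 in hours 26-29, a log2 change of 0.99 (adjusted p = 0.021 from edgeR), and both guides had their lowest value of the 8 hours at 29 h.

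The passenger strands of Mir-36-o13, o1 and o19 rose as well, and their largest hourly steps came at earlier hours than those of the guides. Mir-36-o13_5p* had 9921, 13580, 16644 and 19561 normalised counts in hours 30-33, against 1324, 1332, 2915 and 6061 in hours 26-29. Its largest hourly step was that from 27 to 28 h, whereas that of Mir-36-o13_3p lay between 29 and 30 h, and its log2 change was 2.36 (SE 0.52, adjusted p = 0.011 from edgeR). Mir-36-o1_5p* had 198, 318, 364 and 452 normalised counts in hours 30-33, against 50.2, 23.0, 58.7 and 131 in hours 26-29, with its largest step also from 27 to 28 h and a log2 change of 2.34 (SE 0.48, adjusted p = 0.0087 from edgeR). Mir-36-o19_5p* had 444, 571, 728 and 950 normalised counts in hours 30-33, against 119, 86.2, 160 and 307 in hours 26-29, with its largest step from 28 to 29 h and a log2 change of 2.0 (SE 0.41, adjusted p = 0.0087 from edgeR). For all 3 the windows did not overlap, and no hour from 18 to 25 h had reached the lowest value of hours 30-33. The order of the steps between the strands was not tested.

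**Figure D2:**
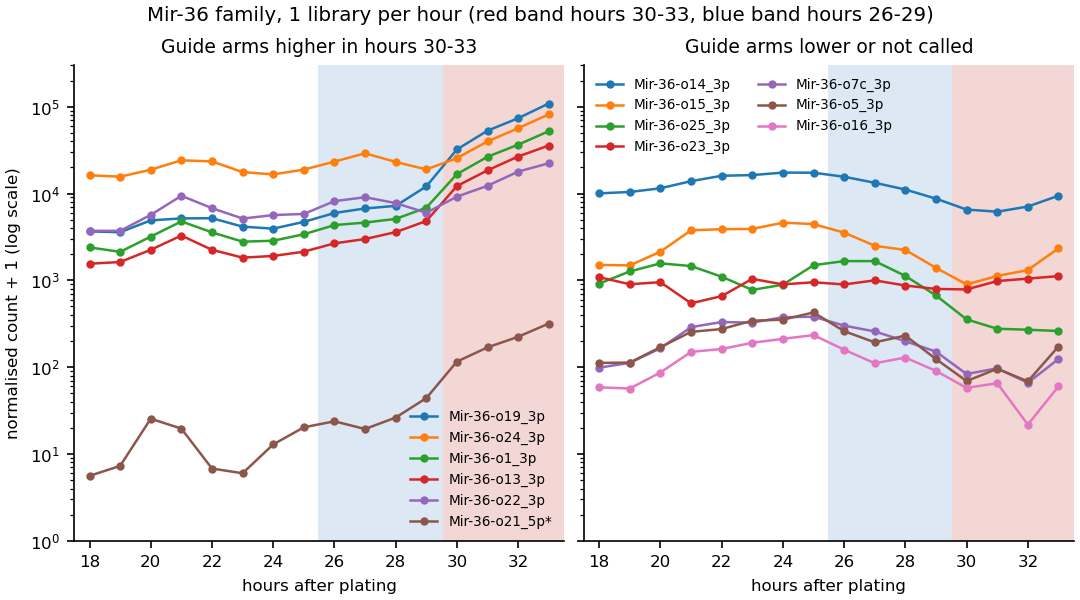
Normalised counts + 1 (y axis, log scale) of Mir-36 guide arms at each hour from 18 to 33 h after plating (x axis, 1 library per hour), with hours 30-33 shaded red and hours 26-29 blue. The 6 guides on the left were called higher in hours 30-33, with Mir-36-o19_3p reaching 108774 at 33 h; of the 7 on the right, o15 and o23 were not called and the others were lower, with most of them turning up again by 33 h.

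The other side of the family declined. Mir-36-o25_3p had 354, 276, 269 and 260 normalised counts in hours 30-33, against 1665, 1665, 1123 and 669 in hours 26-29, so the windows did not overlap. Its log2 change was -2.14 (SE 0.29, adjusted p = 0.0025 from edgeR), a 4.42-fold fall that began after 27 h. Mir-36-o14_3p, the most abundant member of the declining side, had 6533, 6173, 7075 and 9424 normalised counts in hours 30-33, against 15599, 13289, 11113 and 8723 in hours 26-29, with overlap at the 33 and 29 h libraries and a log2 change of -0.74 (adjusted p = 0.021 from edgeR). Mir-36-o15_3p ran in parallel, with 897, 1121, 1312 and 2336 in hours 30-33 and 3544, 2500, 2236 and 1392 in hours 26-29, but was not called (log2 change -0.77, adjusted p = 0.11 from edgeR). Both reached their lowest values at 30 or 31 h and were higher again at 33 h.

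The 13 guide rows from Mir-36-o2 to Mir-36-o10 (with o7 and o8 in 3 copies each) do not count as 13 findings. All 13 were called lower, with log2 changes of -1.33 to -0.91, but their counts over the 8 libraries differed by no more than sampling noise (chi-square 86.1 on 84 degrees of freedom, p = 0.42). Reads that match several loci were kept in the counting, so these rows may hold 1 pool of reads shared among near-identical copies. Summed, the 13 rows had 1078, 1188, 954 and 1897 normalised counts in hours 30-33, against 3616, 3108, 2697 and 1846 in hours 26-29, a log2 change of -1.14 (SE 0.27, adjusted p = 0.013 from edgeR) with the 33 h value just above that of 29 h. When 13 sets of near-equal rows were summed (same family and strand, summed counts within 0.15 on the log2 scale and a chi-square p above 0.001 for each pair, among rows with a mean of at least 50 normalised counts) and the repeated rows named -v2 left out, 38 of 270 units were higher and 82 lower. The guides of o26 and o23 showed neither course, with log2 changes of -0.04 and 0.14 (adjusted p = 0.83 and 0.37 from edgeR).

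The Let-7 family fell on both strands, most steeply on the passenger of Let-7-P5. Of its 8 arms 0 were higher and 6 lower (3 of 4 guides and 3 of 4 passengers), against 12.9% and 33.7% of all tested arms, with a median log2 change of -0.55. Let-7-P8_5p, the most abundant guide, had 447470, 442680, 426795 and 403291 normalised counts in hours 30-33, against 425812, 409108, 451509 and 455213 in hours 26-29, and was not called (log2 change -0.02, SE 0.05, adjusted p = 0.79 from edgeR; 0.12 with TMM factors, also not called). Let-7-P5_5p had 156691, 139206, 130670 and 115226 normalised counts in hours 30-33, against 167987, 180206, 175280 and 171048 in hours 26-29, a log2 change of -0.36 (SE 0.09, adjusted p = 0.014 from edgeR). This guide had climbed over the earlier hours, with 12328 to 143145 from 18 to 25 h, and fell at each hour after 27 h.

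Its passenger strand, Let-7-P5_3p*, had the largest fall of all tested arms. It had 276, 193, 138 and 114 normalised counts in hours 30-33, against 6530, 4851, 2041 and 849 in hours 26-29. It fell at all 7 steps, and its log2 change was -4.31 (SE 0.67, adjusted p = 0.0039 from edgeR), or 19.8-fold. From 18 to 25 h it had varied between 793 and 8723, so the hours 30-33 values were below any earlier one. Let-7-P8_3p* had 42925, 38031, 33210 and 34709 normalised counts in hours 30-33, against 60736, 65486, 62068 and 53591 in hours 26-29, a log2 change of -0.70 (SE 0.10, adjusted p = 0.0025 from edgeR), again with no overlap. Let-7-P7 fell on both strands, with log2 changes of -0.77 for the passenger and -0.39 for the guide (adjusted p = 0.0091 and 0.014 from edgeR).

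Let-7-P6 was the exception in strand use. Its 3p* arm, the more abundant one over the whole course, had 4226, 2775, 2231 and 2121 normalised counts in hours 30-33, against 12437, 9354, 6386 and 6703 in hours 26-29, a log2 change of -1.62 (SE 0.29, adjusted p = 0.0071 from edgeR). Its 5p arm had 3134, 2917, 2873 and 2770 in hours 30-33 and 2837, 2953, 3155 and 2939 in hours 26-29 (log2 change -0.02, adjusted p = 0.81 from edgeR). The 3p* to 5p ratio was therefore 0.766 at 33 h against 4.38 at 26 h, and the more abundant strand changed within hours 30-33.

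In the Mir-10 family, where MirGeneDB places the relatives of lin-4, another heterochronic miRNA, 1 hairpin of 4, Mir-10-P3m, had a called change of the strand ratio. Mir-10-P3m_3p* had 97.9, 53.8, 27.3 and 37.0 normalised counts in hours 30-33, against 1732, 1389, 750 and 352 in hours 26-29, a log2 change of -4.29 (SE 0.60, adjusted p = 0.0025 from edgeR), or 19.6-fold. Its guide, Mir-10-P3m_5p, had 26888, 25582, 23254 and 23119 normalised counts in hours 30-33, against 30450, 33763, 30350 and 30904 in hours 26-29, a log2 change of -0.34 (SE 0.07, adjusted p = 0.010 from edgeR; 0.057 with TMM and 0.077 with median-of-ratios factors). Neither strand overlapped between the windows, and the passenger had varied between 207 and 1613 from 18 to 25 h. The passenger of the paralogue, Mir-10-P3n_3p*, took another course, with 7544, 11149, 15946 and 26664 in hours 30-33 and 46580, 21304, 7657 and 6538 in hours 26-29. This was a low point near the border of the windows, and its log2 change of -0.42 was not called (SE 0.66, adjusted p = 0.61 from edgeR; 0.37 without the 26 h library). The family had 5 lower and 0 higher of 8 arms (33.7% and 12.9% of all tested arms), with a median log2 change of -0.30 beside -0.18 for all tested arms. Among the 5, Mir-10-P3n_5p (-0.25, adjusted p = 0.029 from edgeR) was not called with TMM or median-of-ratios factors, DESeq2 or limma. The most abundant arm of the family, Mir-10-P1_5p, was not called (-0.20, adjusted p = 0.051 from edgeR, and 0.011 without the 29 h library).

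Both arms were tested for 125 hairpins, and the log2 ratio of passenger to guide was compared between the windows with limma. The passenger was lower relative to the guide in hours 30-33 for 33 hairpins (26.4%) and higher for 10 (8.0%). Without the repeated rows named -v2, 32 of 119 hairpins were lower and 10 higher, the 10 still holding both near-equal Mir-77 hairpins. Among the 33, the passenger arm itself was called lower in 24, and the guide was called lower in 7 and higher in 9. A choice of hairpins by a fall of the ratio favours lower passengers and higher guides. Over all tested arms, 30.4% of passengers were lower, and 35.9% of guides were lower and 15.2% higher. With the hour as an added linear term limma called 0 ratios (11 at an unadjusted p under 0.05). Without the 27, 28, 31 or 32 h library 20 or 21 ratios were lower, and without the 27, 31, 32 or 33 h library 5 or 6 were higher. The passenger arms together held 4.33% ± 0.14 of the counts in hours 30-33 and 4.75% ± 0.39 in hours 26-29 (mean ± SD of 4 hours), a difference of -0.414 percentage points that did not pass an exact 2-sided permutation test over the 70 splits of the 8 hours (p = 0.114; smallest possible 0.0286; 0.0286 without the 29 h library).

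**Figure D3:**
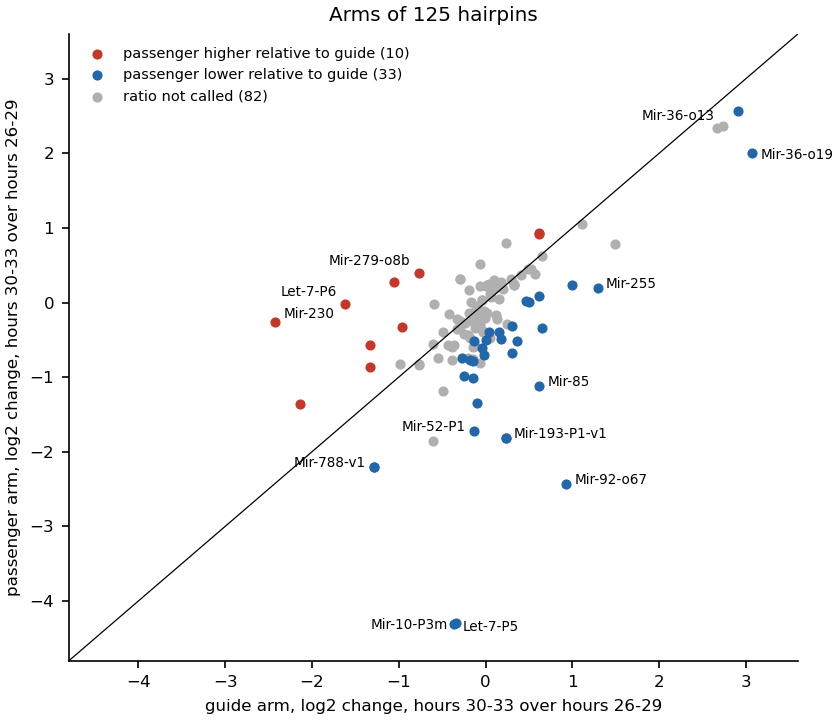
Log2 change of the passenger arm (y axis) against that of the guide arm (x axis), hours 30-33 over hours 26-29, for the 125 hairpins with both arms tested; the diagonal marks equal change. Blue hairpins (33) lost passenger relative to guide and red ones (10) gained it, and Let-7-P5 and Mir-10-P3m stand apart at the bottom with passenger changes of -4.31 and -4.29.

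The largest losses of passenger relative to guide were those of Mir-10-P3m and Let-7-P5, followed by Mir-92-o67, Mir-193-P1 and Mir-85. For Mir-10-P3m the guide outnumbered the passenger 275, 475, 851 and 625 times at 30, 31, 32 and 33 h, against 17.6, 24.3, 40.5 and 87.8 times at 26, 27, 28 and 29 h, a change in the log2 ratio of -3.64 (SE 0.49, adjusted p = 0.0033 from limma). For Let-7-P5 it did so 569, 721, 947 and 1007 times in hours 30-33, against 25.7, 37.1, 85.9 and 201 times in hours 26-29 (-3.57, SE 0.58, adjusted p = 0.0033 from limma). The ratios did not overlap between the windows for any of the 5 hairpins. These were picked as the largest called losses, a choice that favours separate windows, so the lack of overlap adds no support.

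Mir-92-o67 is 1 of 2 *C. briggsae* relatives of miR-235 of *C. elegans* and of miR-92 of mammals. Its guide had 642156, 590413, 584781 and 630647 normalised counts in hours 30-33, against 110779, 175500, 406262 and 591541 in hours 26-29, so most of the growth took place within hours 26-29 and the 4 later values were level. Its log2 change of 0.93 was not called (SE 0.46, adjusted p = 0.13 from edgeR; 0.023 without the 29 h library). Its passenger, Mir-92-o67_5p*, had 82.4, 33.9, 15.6 and 16.2 normalised counts in hours 30-33, against 55.9, 241, 288 and 210 in hours 26-29, a log2 change of -2.43 (SE 0.65, adjusted p = 0.019 from edgeR; up to 0.056 without the 31, 32 or 33 h library). The log2 ratio changed by -3.45 (SE 0.50, adjusted p = 0.0033 from limma). The second relative, Mir-92-o68_3p, was also level in hours 30-33 at 50479 to 59391, against 13338 to 61171 in hours 26-29 (log2 change 0.65, adjusted p = 0.22 from edgeR; 0.041 without the 29 h library). From 18 to 25 h the Mir-92-o67 guide had varied between 148460 and 408678 and its passenger between 22.4 and 269. The paper reports rhythmic accumulation of both guides in this course, with the Mir-92-o67 passenger almost opposite in phase. How much of the window differences belongs to that rhythm was not tested.

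Mir-85 was low until late in the course. Mir-85_3p had 40452, 35744, 40991 and 32004 normalised counts in hours 30-33, against 10393, 20026, 25202 and 41765 in hours 26-29, and 73.2 to 3885 before. It had reached its plateau by 29 h and was not called (log2 change 0.62, SE 0.36, adjusted p = 0.19 from edgeR; 0.021 without the 29 h library), whereas its passenger Mir-85_5p* was already past its peak. That strand had 2139, 1877, 1419 and 1013 in hours 30-33, against 2471, 3538, 4210 and 3783 in hours 26-29, a log2 change of -1.12 (SE 0.25, adjusted p = 0.012 from edgeR). Mir-193-P1-v1_5p* had 4115, 3443, 2836 and 2363 normalised counts in hours 30-33, against 14040, 13176, 11032 and 6761 in hours 26-29, a log2 change of -1.82 (SE 0.26, adjusted p = 0.0025 from edgeR). Its guide was level in hours 30-33, at 17819 to 20643, against 10785 to 20805 in hours 26-29, and the guide outnumbered the passenger 7.54 times at 33 h but only 0.768 times at 26 h. Mir-52-P1_3p* and Mir-2231_5p* also fell, with log2 changes of -1.72 and -1.35 (adjusted p = 0.0025 and 0.012 from edgeR) beside guides at -0.13 and -0.10 that were not called.

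**Figure D4:**
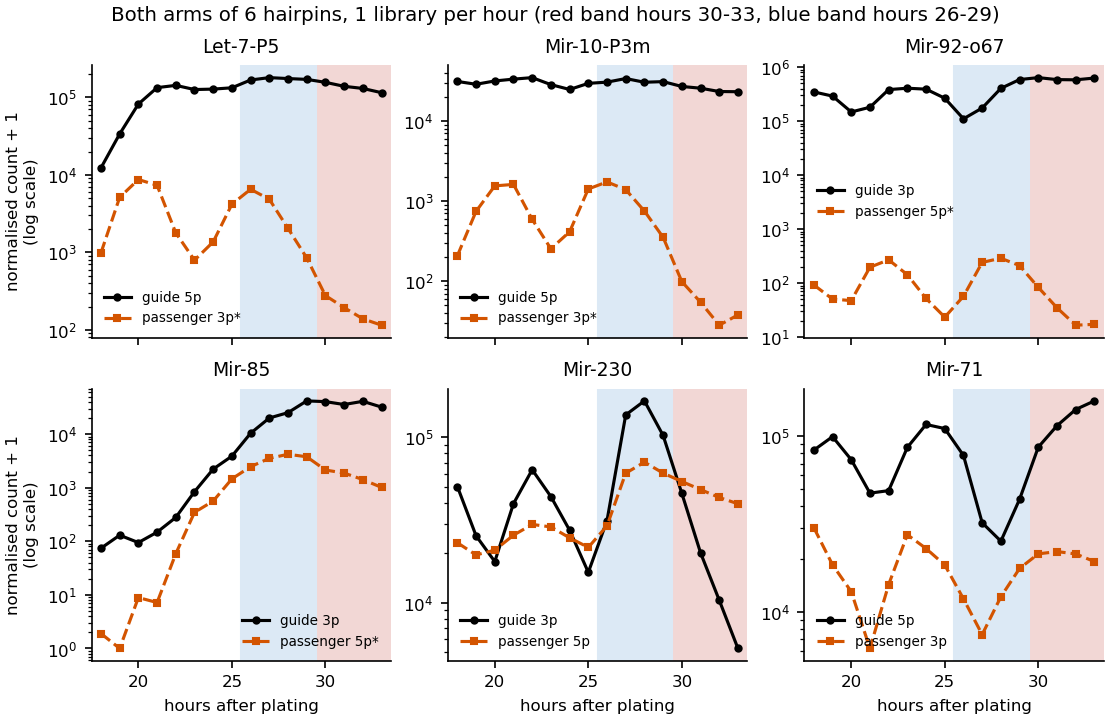
Normalised counts + 1 (y axis, log scale) of the guide arm (black) and the passenger arm (orange) of 6 hairpins at each hour from 18 to 33 h after plating (x axis, 1 library per hour), with hours 30-33 shaded red and hours 26-29 blue. The passengers of Let-7-P5, Mir-10-P3m, Mir-92-o67 and Mir-85 decline across hours 30-33 while their guides stay within the same order of magnitude, the 3p arm of Mir-230 drops below its 5p arm, and Mir-71_5p climbs after its low point at 28 h.

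The opposite shift was led by Mir-230. Mir-230_3p had 45666, 20001, 10341 and 5288 normalised counts in hours 30-33, against 31274, 135772, 165016 and 102028 in hours 26-29. It peaked at 28 h and fell at each later hour, to a level at 33 h below any other hour of the course, and its log2 change was -2.42 (SE 0.73, adjusted p = 0.029 from edgeR; up to 0.077 without the 27, 28, 31, 32 or 33 h library). The 5p arm of the same hairpin had 53824, 48129, 43102 and 39498 in hours 30-33 and 29079, 60433, 70431 and 60484 in hours 26-29 (log2 change -0.26, adjusted p = 0.41 from edgeR). The 3p arm thus stood at 0.134 of the 5p arm at 33 h and at 2.34 times it at 28 h, and the log2 ratio of 5p to 3p changed by 2.43 (SE 0.53, adjusted p = 0.0084 from limma). Let-7-P6, with 1.60, and Mir-279-o8b, with 1.27, came next (adjusted p = 0.0049 and 0.0070 from limma), followed by Mir-789 with 1.26 (adjusted p = 0.0051) and Mir-36-o25 with 1.03 (adjusted p = 0.045, up to 0.11 without the 27, 28, 29, 31, 32 or 33 h library). In all 5 the more abundant arm fell.

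Mir-71_5p was the most abundant arm to rise by more than 2-fold. It had 86850, 115090, 142416 and 159462 normalised counts in hours 30-33, against 77889, 32180, 25270 and 43809 in hours 26-29, a log2 change of 1.49 (SE 0.36, adjusted p = 0.014 from edgeR). Its lowest value of the course fell at 28 h, and the 32 and 33 h values exceeded the highest one from 18 to 25 h, 117020. Mir-71_3p rose as well (log2 change 0.78, adjusted p = 0.026 from edgeR; up to 0.064 without the 26, 28, 30, 31 or 32 h library). Mir-255_5p had 1347, 1842, 1640 and 1352 normalised counts in hours 30-33, against 704, 529, 608 and 678 in hours 26-29, a log2 change of 1.29 (SE 0.14, adjusted p = 0.0025 from edgeR), and stepped up between 29 and 30 h. All 4 Mir-77 rows were higher (12.9% of all tested arms), with a median log2 change of 0.76. P1 and P2 agreed within sampling noise on both strands (chi-square p = 0.27 and 0.52), however, and count as 1 hairpin.

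Mir-788 declined on both strands, with 4 of 4 rows lower (33.7% of all tested arms) and a median log2 change of -1.75. Its v1 and v2 rows repeat each other and stand for 1 hairpin. Mir-788-v1_3p had 21825, 19435, 17430 and 16265 normalised counts in hours 30-33, against 56403, 58492, 39227 and 27579 in hours 26-29, a log2 change of -1.28 (SE 0.24, adjusted p = 0.0071 from edgeR). Mir-788-v1_5p* had 2647, 2835, 2525 and 2063 in hours 30-33, against 21559, 13059, 7649 and 4433 in hours 26-29, a log2 change of -2.21 (SE 0.44, adjusted p = 0.0085 from edgeR). All hours 30-33 values of both strands lay below the lowest one of the whole course before 30 h. Mir-9-P16_5p, of a family known from neural development in vertebrates, had 65636, 50335, 41810 and 33133 normalised counts in hours 30-33, against 124913, 132533, 130308 and 91931 in hours 26-29, a log2 change of -1.33 (SE 0.21, adjusted p = 0.0044 from edgeR). Its 3p* strand was also lower (-0.86, adjusted p = 0.0085 from edgeR).

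Of the 5 Mir-279 guides 4 were lower, and Mir-279-o9_3p, the most abundant over the 8 libraries, was not called, with 396969 to 408349 normalised counts in hours 30-33 and 381201 to 391631 in hours 26-29 (log2 change 0.06, adjusted p = 0.15 from edgeR). Mir-279-o8b_3p had 271225, 239542, 224768 and 217822 normalised counts in hours 30-33, against 521299, 436170, 340035 and 331427 in hours 26-29, a log2 change of -0.77 (SE 0.15, adjusted p = 0.0085 from edgeR). Mir-279-o7_3p changed by the same -0.77 and differed from o8a by less than sampling noise (chi-square p = 0.24). Mir-279-o10_3p changed by -0.96 (adjusted p = 0.014 from edgeR). The family had 5 lower and 0 higher of 10 arms (33.7% and 12.9% of all tested arms), with the near-equal o7 and o8a guides both among the 5, and a median log2 change of -0.77, and its share of the counts was 6.14% ± 0.27 in hours 30-33 and 8.07% ± 1.1 in hours 26-29 (mean ± SD of 4 hours). The passengers of o7 and o8a were not called (-0.82 and -0.84, adjusted p = 0.29 and 0.28 from edgeR), and without the 26 h library their changes were 0.09 and 0.06. In Mir-7594, a family without a known role to name here, all 8 arms were lower, against 33.7% of all tested arms. The median was -0.48, beside -0.18 for all tested arms, with changes of -0.98 to -0.25. The P1a and P1b rows agreed within sampling noise on both strands (chi-square p = 0.52 and 0.95).

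**Figure D5:**
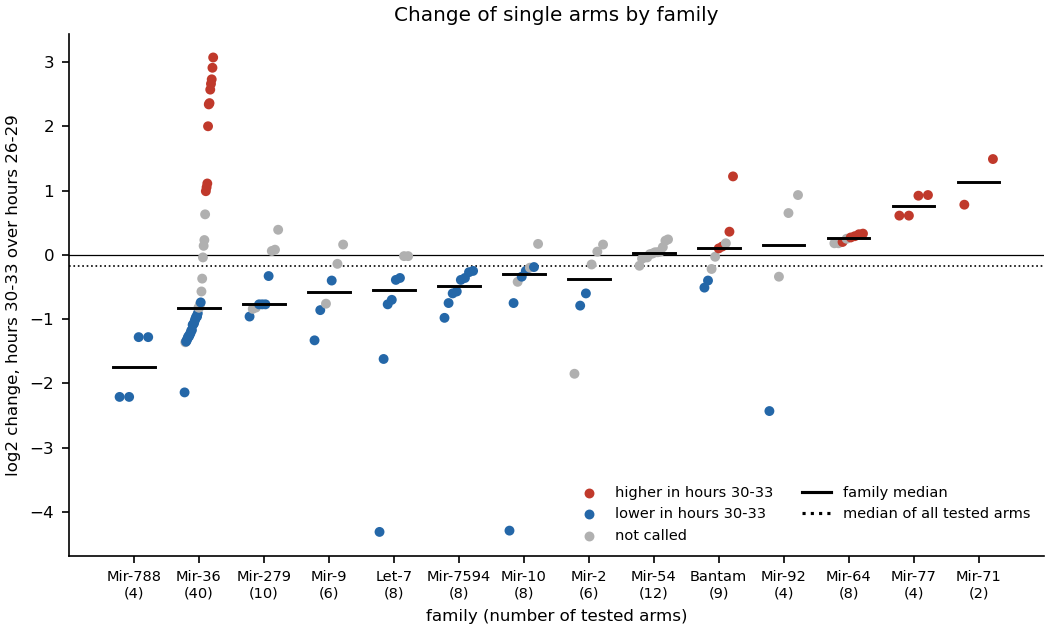
Log2 change (y axis, hours 30-33 over hours 26-29) of each tested arm in 14 families (x axis, number of arms in parentheses), in red where higher, blue where lower and grey where not called, with a bar at the family median and a dotted line at the median of all tested arms (-0.18). Mir-36 spans from -2.14 to 3.07, all Mir-788 and Mir-7594 arms are lower, and no Mir-54 arm was called.

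The Bantam family, the relatives of miR-58 of *C. elegans*, was the most abundant one, with 34.7% ± 0.27 of the counts in hours 30-33 and 31.9% ± 1.2 in hours 26-29 (mean ± SD of 4 hours). Bantam-P4_3p had 1031189, 1035580, 1018098 and 1028941 normalised counts in hours 30-33, against 643445, 743182, 849349 and 966967 in hours 26-29, a log2 change of 0.36 (SE 0.11, adjusted p = 0.031 from edgeR; up to 0.080 without the 27, 30, 31, 32 or 33 h library). Bantam-P3_3p changed by 0.13 (adjusted p = 0.0094 from edgeR, 0.11 from limma) and Bantam-P2_3p by 0.10 (adjusted p = 0.047, up to 0.12 without 1 library, with only the 30 h library dispensable), while Bantam-P1a_3p, the most abundant arm of all, was not called (-0.03, adjusted p = 0.34; 0.10 with TMM factors). Bantam-P1b_3p, a minor guide with 73.4, 83.1, 98.9 and 85.5 normalised counts in hours 30-33, against 12.3, 51.7, 33.4 and 50.0 in hours 26-29, had the largest change of the family (log2 change 1.22, SE 0.37, adjusted p = 0.029 from edgeR). Of the 4 tested Bantam passengers 2 fell, with Bantam-P4_5p* at -0.51 and Bantam-P1a_5p* at -0.40 (adjusted p = 0.029 and 0.025 from edgeR; up to 0.073 and 0.069 without the 27, 31 or 32 h library, and for P4_5p* also the 28 or 33 h library, and not called with median-of-ratios factors). Bantam-P3_5p* and Bantam-P2_5p* were not called (-0.22 and 0.18, adjusted p = 0.11 and 0.43 from edgeR). Of the 12 Mir-54 arms 0 were called by edgeR, with a median of 0.03 and changes of -0.17 to 0.24. In Mir-64, 5 of 8 arms were higher and 0 lower, against 12.9% higher and 33.7% lower of all tested arms, with a median of 0.26.

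Tested arms of the muscle miRNA Mir-1 and the neuronal Mir-124 family changed by -0.32 to 0.30 on the log2 scale. Both Mir-1 arms were called. Mir-1_3p, the muscle miRNA, had 30526, 30645, 34258 and 33385 normalised counts in hours 30-33, against 28319, 23766, 25955 and 26645 in hours 26-29, a log2 change of 0.30 (SE 0.08, adjusted p = 0.016 from edgeR, 0.050 without the 32 h library), and its passenger Mir-1_5p* went the other way (-0.32, adjusted p = 0.019 from edgeR; 0.058 without the 32 h library and 0.13 with TMM factors). Of the neuronal Mir-124 family 0 of 3 tested arms were called. Mir-124-P10_3p had 541, 524, 505 and 564 normalised counts in hours 30-33, against 561, 576, 567 and 590 in hours 26-29 (log2 change -0.10, adjusted p = 0.27 from edgeR), and Mir-124-P12_3p changed by -0.22 (adjusted p = 0.12). Mir-96-P3_5p, of a family known from vertebrate sensory organs, had 610909, 612072, 573523 and 535055 normalised counts in hours 30-33, against 868888, 836544, 719403 and 705573 in hours 26-29, a log2 change of -0.43 (SE 0.08, adjusted p = 0.0073 from edgeR).

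Among other late miRNAs, Mir-246_3p had 13859, 13767, 14647 and 15228 normalised counts in hours 30-33, against 7280, 9306, 11937 and 12463 in hours 26-29, and at most 4467 before. Its log2 change was 0.49 (SE 0.16, adjusted p = 0.042 from edgeR; up to 0.10 without the 27, 30, 31, 32 or 33 h library). Mir-1817_5p, which had at most 121 normalised counts before 26 h, stood at 5993, 5099, 5501 and 4566 in hours 30-33, against 495, 1684, 4267 and 5083 in hours 26-29, and was not called (log2 change 0.88, SE 0.60, adjusted p = 0.26 from edgeR). As for Mir-85_3p and Mir-92-o67_3p, most of its increase had taken place by 29 h. The highest values of Mir-1817_5p and Mir-92-o67_3p, 5993 and 642156, came at 30 h. Mir-785-P1_3p rose (0.35, adjusted p = 0.036 from edgeR; up to 0.093 without the 26, 27, 30, 31, 32 or 33 h library), and the 2 tested arms of Mir-357 and the 4 of Mir-358 were not called, with none above 58.7 normalised counts in the 8 libraries.

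The bulk of each library stayed in the same few arms. The 10 most abundant arms over the course held 60.1%, 60.1%, 59.9% and 58.7% of the counts at 30, 31, 32 and 33 h, against 62.5%, 62.3%, 60.8% and 60.4% at 26, 27, 28 and 29 h. The windows did not overlap, and the difference of -1.79 percentage points had the smallest p that the 70 splits allow (exact permutation test, 2-sided, p = 0.0286), and without any 1 hour of hours 30-33 it was 0.0571 or 0.0857. A steady fall over consecutive hours would give the same smallest p, so this test cannot tell a step between the windows from a drift with age. Of these arms Bantam-P2, P3 and P4 were higher and Mir-96-P3_5p and Mir-279-o8b_3p lower, and the other 5, Bantam-P1a, Mir-54-P3, Mir-90-P1, Mir-10-P1 and Let-7-P8, were not called.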

How the data were processed

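Small RNA libraries (TruSeq small RNA kit, single-end reads of 50 cycles on a HiSeq2500) were made from whole animals, with 1 library per hour. The authors aligned reads with Bowtie through QuasR, kept reads matching up to 100 positions, and deposited the count of reads starting within 3 bases of the 5′ end of each miRNA arm. The methods name assembly WS225 with MirGeneDB, the submitters' processing notes name ce10, and no source used here gives the tool versions. The authors also deposited a log2 table of the same counts, scaled to the mean total with a pseudocount of 8, which was used only to check the scaling.

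Arms with 10 or more counts in at least 4 of the 8 libraries were tested on the deposited counts with edgeR 4.0.16 (quasi-likelihood, library totals as scaling, window as the only term) in R 4.3.3, with a threshold of 0.05 on the Benjamini-Hochberg adjusted p. Passenger to guide ratios were compared with limma 3.58.1 on log2(normalised count + 8). Shares were compared by an exact permutation test. DESeq2 1.42.0 served as an alternative. Named arms, with rows named -v2 left out and a mean of at least 100 normalised counts, were the 10 called arms with the largest rise and the 10 with the largest fall, the 5 hairpins with the largest called ratio change each way, the 10 most abundant arms, and up to 4 arms of each of a list of families. Families with at least 3 tested arms were described by their counts and median. The other Mir-36 guides, the second arm of some named hairpins, Bantam-P1b, Bantam-P2_5p*, Mir-279-o9 and the Mir-77 rows were named after their values were seen. The comparison, the lists and the families were chosen with earlier results of these data known, and the summing of near-equal rows was chosen after seeing the data. Reads carry no molecular identifiers.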

Additional observations from a re-analysis of the deposited data

Results flagged for a closer look

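Within a window of 4 hours, 4 of 144 series of values (72 named arms in both windows) held 1 library far from the other 3, where chance gives about 1 in 20. Mir-52-P1_3p* had 31147 normalised counts at 30 h, with the nearest other hour of hours 30-33 at 25813 (gap over range 0.85). Mir-10-P3m_5p had 33763 at 27 h, with the nearest other hour of hours 26-29 at 30904 (0.83). Mir-54-P1a_3p had 11528 at 29 h, with the nearest other hour at 13597 (0.85). Mir-9-P16_5p had 91931 at 29 h, with the nearest other hour at 124913 (0.84). The libraries at 29 and 30 h adjoin the border of the windows.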

How the results depend on the processing

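No paired analysis was possible because the hours carry no shared replicate numbers in the labels. DESeq2 gave 66 higher and 77 lower arms. With a linear hour term added, 0 arms and 0 hairpin ratios were called in either direction. Without single libraries 25 to 42 arms were higher and 60 to 115 lower, and 5 to 11 hairpin ratios were higher and 20 to 37 lower. With a pseudocount of 1, 5 ratios were higher, and with all 16 libraries 6 were higher and 19 lower. The share of the 10 most abundant arms changed by -2.15 to -1.45 points without single libraries. It changed by -2.29 points without hours 29 and 30 (exact permutation p = 0.1, the smallest that the fewer splits of the remaining hours allow). The share of passenger arms changed by -0.578 to -0.267 points without single libraries. Of 56 named calls, 40 were made under every alternative other than the hour term and single libraries, 39 without each single library, and 35 under both.

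Some log2 changes turned direction, none of them in a called alternative. With TMM, median-of-ratios and DESeq2 scaling these were 0.10, 0.12 and 0.12 for Bantam-P1a_3p, 0.08, 0.09 and 0.09 for Mir-54-P3_3p, 0.12, 0.13 and 0.13 for Let-7-P8_5p, 0.03, 0.04 and 0.05 for Mir-124-P10_3p, and 0.08, 0.09 and 0.09 for Mir-785-P2_3p, and with median-of-ratios and DESeq2 0.01 for Mir-2-o3_3p. With the hour term they were 0.00 for Bantam-P1a_3p, -0.01 for Bantam-P4_3p, 0.07 for Mir-90-P1_3p, 0.05 for Mir-10-P1_5p, 0.76 for Mir-10-P3n_3p*, -0.41 for Mir-92-o67_3p, -0.44 for Mir-92-o68_3p, 0.15 for Mir-124-P12_3p, -0.01 for Mir-785-P1_3p, 0.07 for Mir-785-P2_3p, -0.32 for Mir-85_3p, 0.04 for Mir-2-o4_3p, 0.00 for Mir-2-P11_3p, 0.03 for Mir-2-o3_3p, 0.82 for Mir-9-P15_5p*, 0.60 for Mir-279-o8a_5p*, 0.89 for Mir-279-o7_5p*, 0.31 for Mir-96-P3_3p*, -0.52 for Mir-1817_5p and -0.11 for Mir-246_3p. Without single libraries the range crossed 0 for Let-7-P8_5p (-0.05 to 0.01), Mir-10-P3n_3p* (-0.83 to 0.37), Mir-279-o8a_5p* (-1.11 to 0.06) and Mir-279-o7_5p* (-1.1 to 0.09). The causes were not tested.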
